A study of Mus musculus with 12 samples.

Results

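The 10 genes described here encode 3 Notch receptors (Notch1, Notch2 and Notch3), the DNA-binding factor of the pathway (Rbpj) and 6 genes known as direct Notch targets (Hes1, Heyl, Hey1, Dtx1, Nrarp and Ptcra). They were chosen by symbol, with earlier results of these data known. They make up 10 of the 50600 gene IDs counted in each of 12 RNA-seq libraries. Levels are given as CPM, the reads of a gene per 1000000 reads counted on genes, normalized for library size and composition by the TMM method of edgeR. Each value belongs to 1 mouse.

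The 12 libraries came from 3 mice in each of 4 groups. Ctrl libraries were thymocytes of mice with loxP-flanked Dnmt1 alleles (DNMT1 fl/fl) and no Cre, 20 to 25 wk old. KO libraries were thymocytes of DNMT1 fl/fl CD4-CRE mice, 20 to 21 wk old, and ALK libraries were T cell lymphoma cells of NPM-ALK+ mice (22 to 31 wk), for which the labels give no Dnmt1 allele. ALKKO libraries were thymocytes of mice carrying the transgene together with DNMT1 fl/fl and CD4-CRE (19 to 25 wk). NPM-ALK is a human fusion kinase. The transgene was driven by the enhancer and promoter of Cd4, and the Cre recombinase by these together with the Cd4 silencer. All mice were male except KO mouse 2. The mice had a mixed C57Bl/6 and SV/129 background. Dnmt1, the maintenance DNA methyltransferase, was at 400.0 to 487 CPM in Ctrl, 206 to 244 in KO, 379 to 788 in ALK and 205 to 244 in ALKKO. Alk was at no more than 0.431 CPM in Ctrl and 0.270 in KO, and between 34.9 and 55.0 CPM in all libraries with the transgene. The ALK group is both the only group of tumor cells and the only NPM-ALK group with intact Dnmt1, and these properties cannot be told apart.

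Notch receptors are cut after binding a ligand on a neighbouring cell, and the released intracellular domain joins Rbpj and a Mastermind coactivator on DNA. In the thymus, Notch1 signals commit progenitors to the T lineage and sustain them until the pre-T cell receptor is expressed. The pathway is then turned down as thymocytes reach the double-positive stage, at which they carry both Cd4 and Cd8. Activating lesions of Notch1 are frequent in T-cell acute lymphoblastic leukemia.

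Rbpj recognizes the letters GTGGGAA, and the core of this motif is TGGGAA. RefSeq promoter windows of 300 bases on GRCm38.p6 were at hand for 7 of the 10 genes (Notch1, Notch2, Notch3, Rbpj, Dtx1, Nrarp and Ptcra). On both strands, GTGGGAA was in none of these windows, against 6.38% of all 32851 windows. The core TGGGAA was in 25.6% of all windows and, among the 7 genes, in those of Rbpj and Ptcra. These 4 stretches of 30 bases are shown because they hold the matches, and are written 5′ to 3′ along the gene with the 6 matching bases in capitals (TTCCCA is the core read on the opposite strand).
Rbpj, chr5:53590185-53590214, plus strand: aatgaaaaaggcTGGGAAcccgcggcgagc
Rbpj, chr5:53590269-53590298, plus strand: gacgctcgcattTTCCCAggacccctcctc
Ptcra, chr17:46763779-46763808, minus strand: cccagaaagcacTGGGAActagggggtaga
Ptcra, chr17:46763727-46763756, minus strand: gggtctgtgatcTGGGAAgcagtgtagtag
In Ptcra the matches began 84 and 32 bases before the annotated start. The windows of Notch1, Notch2, Notch3, Dtx1 and Nrarp held no match, which concerns only these letters and these windows. The RefSeq starts used for Notch1 and Rbpj lie inside the longer gene spans given for them in GENCODE M21. A match describes letters and was not tested as a binding site.

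The libraries held 12473857 to 18864327 reads on genes, and 3 counts corresponded to 0.159 to 0.241 CPM. KO library 2 stood apart: the summed CPM of 5 B-cell markers was 1835 there and at most 81.6 in any other library, its 7 macrophage and granulocyte markers summed to 2493 CPM, and its 8 double-positive thymocyte markers to 2870, against 6724 or more in the other 8 thymus libraries. The ALK libraries had 1877 to 3722 CPM of the double-positive markers. Of these, Cd4, Cd8a, Cd8b1 and Rag2 were called lower in ALK, with Cd4 at 27.5 to 116 CPM against 1287 to 1409 in Ctrl, while Cd3e and Dntt were not called. Dntt, the terminal transferase of antigen receptor gene assembly, held most of the sum in the tumors, at 1605, 2942 and 1054 CPM against 1828 to 2061 in Ctrl, and tumor 2 was above all Ctrl libraries. Rag1 was listed at 0 in all 12 libraries, while Rag2 of the same list was at 335 to 422 CPM in Ctrl. The reason for the 0 was not tested, and it is not read as absence of Rag1 RNA. Thymic epithelium markers (7 genes) summed to 33.9 to 200 CPM in ALK and 1077 to 1145 in Ctrl, and fibroblast and pericyte markers (6 genes) to 646 to 1883 against 192 to 364. The collagen genes Col1a1 and Col3a1 held most of the fibroblast sum in the tumors, and Dcn of the same list was at 45.6, 23.0 and 37.1 CPM there, below the 83.2 to 134 CPM of Ctrl (not called, edgeR adjusted p = 0.1001). The study's methods describe RNA isolation from homogenized tumor and thymic tissue, so other cells of the tissue can contribute to each library. In bulk RNA, fewer cells of a type and less RNA per cell cannot be told apart.

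**Figure D1:**
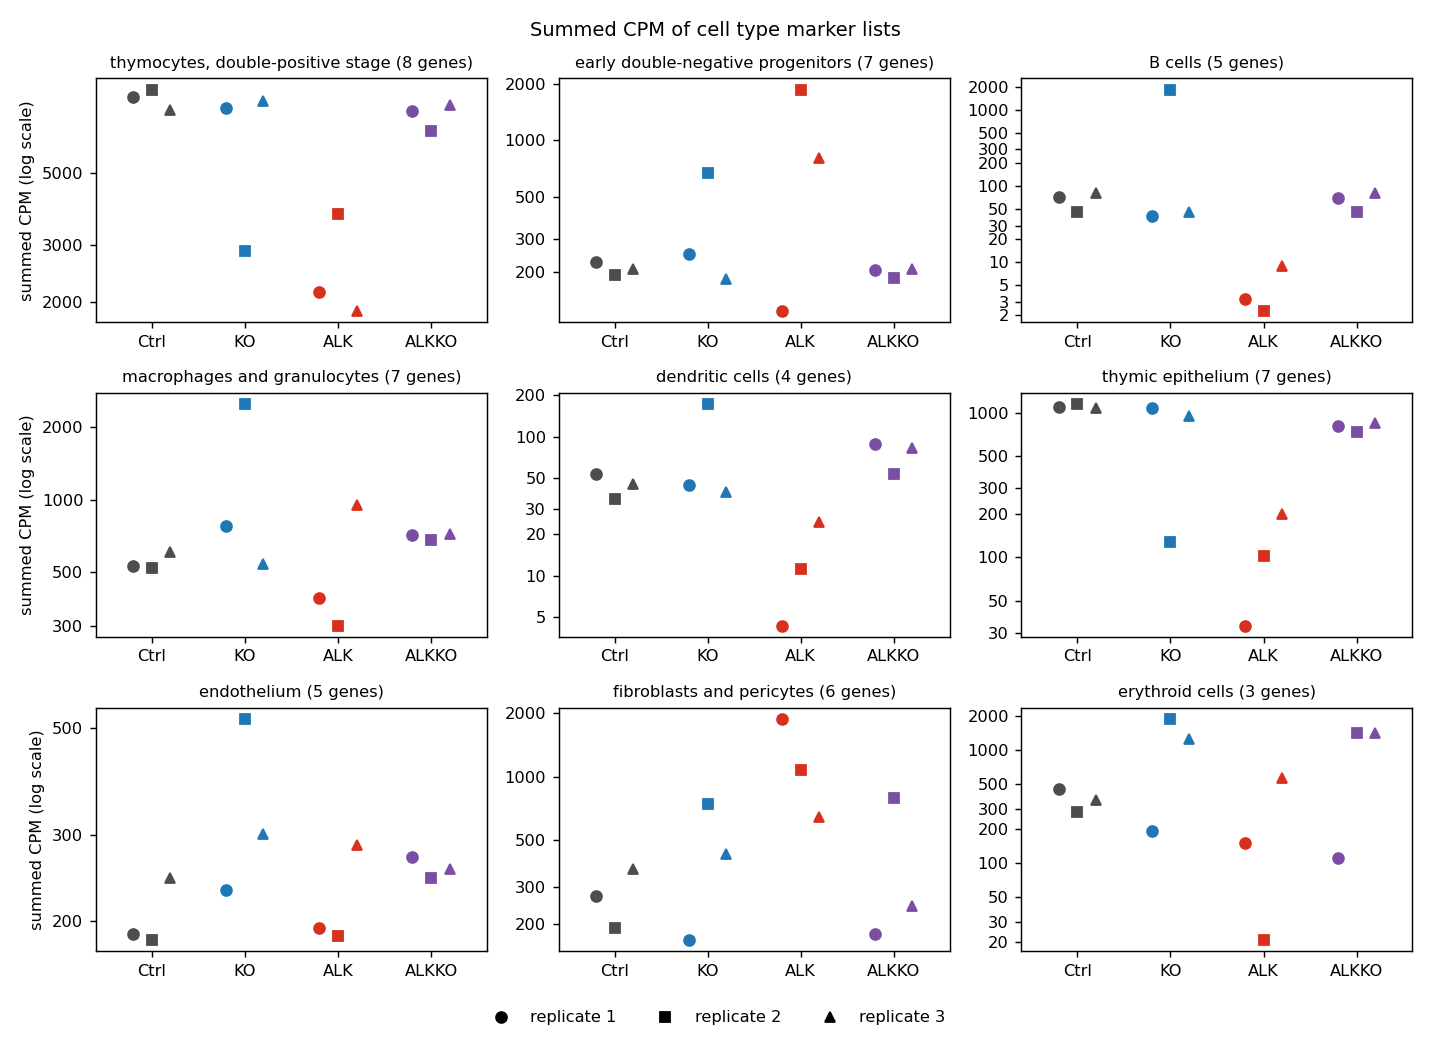
Summed normalized CPM (y axis, log scale) of the marker genes of 9 cell types in each of the 12 libraries, grouped on the x axis. Symbols mark the replicates. KO library 2 is the square at 1835 CPM in the B-cell panel, and the 3 ALK libraries lie below the Ctrl libraries in the double-positive, B-cell, dendritic and epithelial panels and above them in the fibroblast panel.

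The first comparison asked which Notch genes differ between ALK tumor cells and control thymocytes. Of the 10 genes, 6 were called higher in ALK (Notch1, Notch3, Hes1, Heyl, Dtx1 and Nrarp) and 0 lower. Calls required a log2 fold change beyond 1 in either direction together with an adjusted p below 0.05, from the quasi-likelihood test of edgeR adjusted by the Benjamini-Hochberg method over 16052 genes. All 10 genes passed the filter on low counts. Of all genes tested, 8.41% were called higher and 20.4% in either direction. The median log2 fold change was 1.94 over the 10 genes and 0.05 over all genes. Because the 10 genes were chosen with earlier results known, this contrast with all genes is a description and no test of enrichment. The groups did not overlap for 5 of the 10 genes, against 46.4% of all genes. For a single gene with 3 mice against 3, the smallest p of the exact two-sided permutation test is 0.1, and this was its value for each gene whose groups did not overlap.

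**Figure D2:**
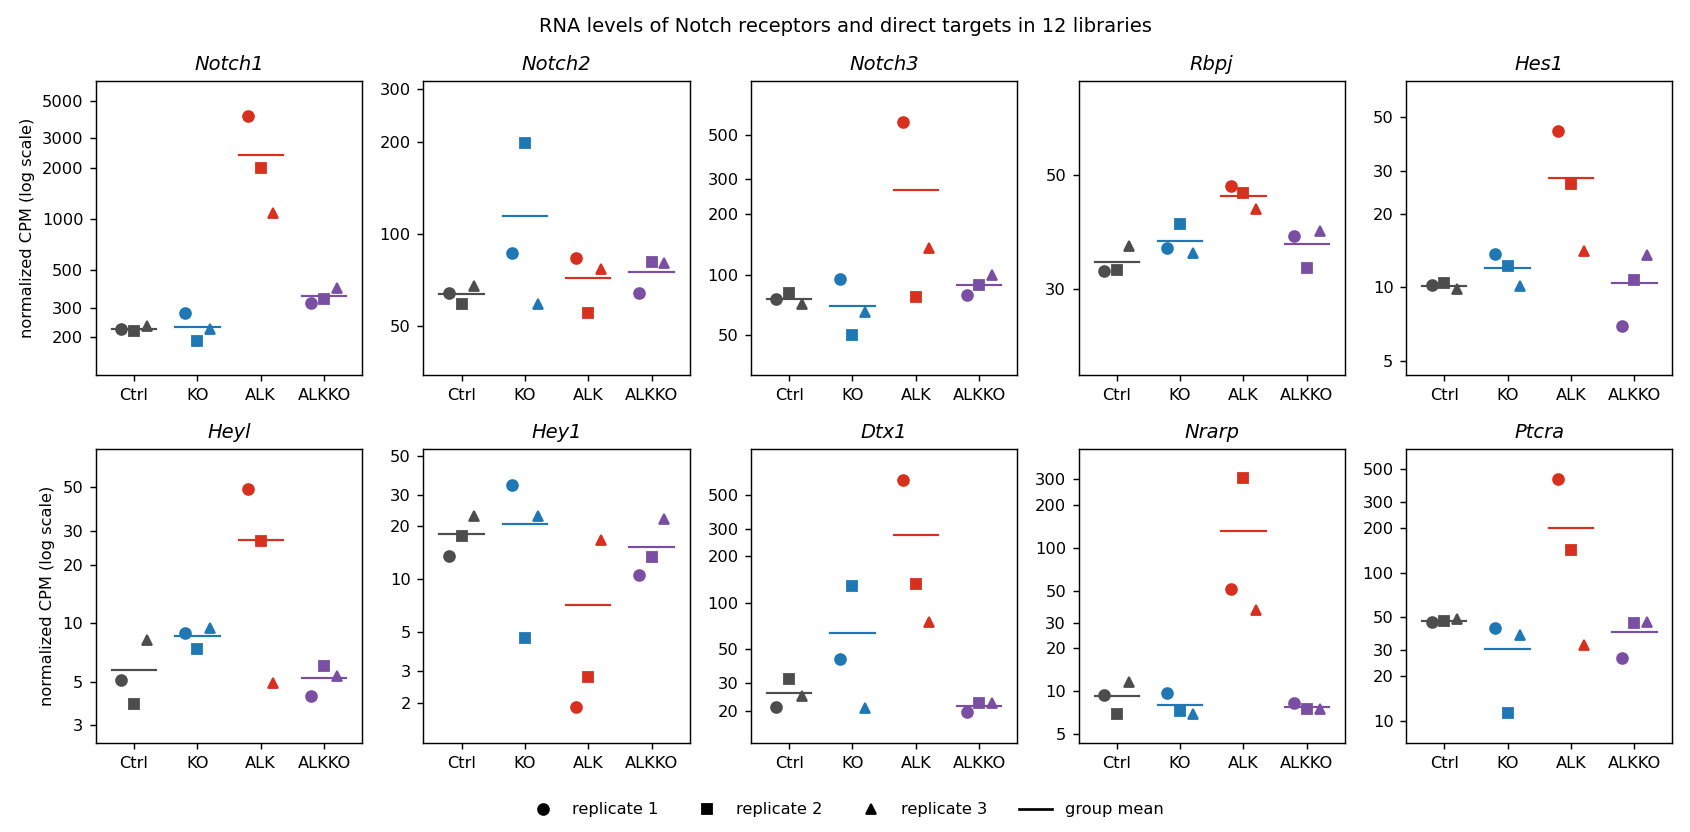
Normalized CPM (y axis, log scale, its own range in each panel) of the 10 genes in Ctrl, KO, ALK and ALKKO libraries (x axis). Symbols mark replicates 1 to 3 and bars the group means. Notch1, Rbpj, Hes1 and Nrarp are higher in all 3 ALK libraries than in all 9 thymus libraries, and Dtx1 in all 3 than in all Ctrl and ALKKO libraries.

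Among the receptors, Notch1 rose most. The gene (ENSMUSG00000026923.15, chr2:26457903-26516663 on GRCm38, minus strand) was at 225, 218 and 233 CPM in Ctrl and at 4087, 1994 and 1084 CPM in the 3 tumors. It was at 277, 191 and 225 CPM in KO and at 320.0, 336 and 393 CPM in ALKKO. Every tumor lay above all 9 thymus libraries, and the lowest tumor was at 4.81 times and the highest at 18.1 times the Ctrl mean. The log2 fold change was 3.41 (SE 0.41, edgeR adjusted p = 0.00055). Per kb of exon, Notch1 ranked 51st, 207th and 504th among the genes of the 3 tumors and between 3612th and 4077th in Ctrl. Notch1 was called under all 19 alternative settings, with log2 fold changes of 2.78 (without tumor 1) to 3.74. A part of its exons, 9.76% of the bases, is overlapped by genes on the opposite strand, of which 0610009E02Rik was at 1.57 to 6.41 CPM in the tumors and Gm13568 was listed at 0. The strand setting of the counting was not given in the sources used here.

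Notch2, a receptor also known from marginal zone B cells, was not called in ALK against Ctrl. This gene (ENSMUSG00000027878.11, chr3:98013527-98150361, plus strand) was at 64.0, 58.8 and 67.7 CPM in Ctrl and at 83.2, 54.9 and 76.7 CPM in ALK. The groups overlapped and the log2 difference was 0.17, with a 95% interval of -0.63 to 0.98 (edgeR adjusted p = 0.75). Its highest value, 199 CPM, was in KO library 2, against 86.4 and 59.0 CPM in the other 2 KO libraries. This library also had the highest sums of B-cell (1835 CPM), macrophage and granulocyte (2493), dendritic (171) and endothelial (523) markers. The part of these cell types in the Notch2 value was not tested. In ALKKO, Notch2 was at 63.9, 80.8 and 80.5 CPM. A gene on the same strand, Gm42820, overlaps 5.02% of its exon bases and was listed at 0 in all libraries.

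The call of Notch3 rested on 1 tumor. Normally a receptor of early thymocytes and of vascular smooth muscle, it (ENSMUSG00000038146.7, chr17:32120820-32166852, minus strand) was at 583 CPM in tumor 1, 77.1 in tumor 2 and 136 in tumor 3. The Ctrl libraries were at 75.3, 80.3 and 71.4 CPM, KO at 94.9, 49.9 and 64.8 and ALKKO at 78.9, 88.2 and 99.1. Tumor 2 lay inside the Ctrl range, so the groups overlapped, while tumors 1 and 3 were above all thymus libraries. The log2 fold change was 1.81 (SE 0.60, edgeR adjusted p = 0.0434) with all tumors, and 0.49 (adjusted p = 0.198) without tumor 1. The call was made in 5 of 19 alternative settings. Tumor 1 also had the highest summed level of the fibroblast and pericyte markers, 1883 CPM against 1078 in tumor 2 and 646 in tumor 3, and their part in the Notch3 value was not tested. Of the 6 markers, Col1a1 and Col3a1 were called higher in ALK and 0 lower. Dcn was lower in all tumors than in all Ctrl libraries, and the pericyte gene Rgs5 was at 45.3, 48.5 and 17.0 CPM in the tumors and at 26.1, 23.9 and 62.4 CPM in Ctrl. Opposite-strand genes overlap 6.03% of the Notch3 exon bases, and the antisense gene there, Gm17276, was at 0.262 to 0.672 CPM in the tumors.

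Rbpj, through which all 4 Notch receptors act on DNA, was higher in the tumors by a small and even amount. It (ENSMUSG00000039191.12, chr5:53466152-53657362, plus strand) was at 32.7, 32.8 and 36.4 CPM in Ctrl and at 47.7, 46.3 and 43.0 CPM in ALK. KO libraries were at 36.2, 40.2 and 35.3 CPM and ALKKO libraries at 38.1, 33.1 and 39.0. All 3 tumors lay above all 9 thymus libraries, with a log2 fold change of 0.43 (SE 0.13, edgeR adjusted p = 0.0304), below the fold threshold of a call. The highest tumor was 1.11 times the lowest, the smallest spread between tumors of the 10 genes.

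The basic helix-loop-helix repressors Hes1, Heyl and Hey1 are transcribed when the Notch complex binds their promoters, and they did not move together here. Hes1, which thymocyte progenitors need for expansion, (ENSMUSG00000022528.7, chr16:30064384-30067796, plus strand) was at 10.3, 10.45 and 9.81 CPM in Ctrl and at 44.0, 26.5 and 14.2 CPM in ALK. KO was at 13.7, 12.2 and 10.2 CPM and ALKKO at 6.96, 10.8 and 13.6. The tumors lay above every thymus library, with tumor 3 at 14.2 CPM just over the highest of them, 13.7 CPM. The log2 fold change was 1.47 (SE 0.39, edgeR adjusted p = 0.0178), and the call was made in 15 of 19 alternative settings. It was lost when any 1 Ctrl library was left out (adjusted p 0.059 to 0.065) and when only ALK and Ctrl were fitted.

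Heyl was higher in 2 of the 3 tumors. This gene (ENSMUSG00000032744.4, chr4:123233556-123249875, plus strand), known from vascular smooth muscle, was at 5.13, 3.86 and 8.19 CPM in Ctrl and at 49.3, 26.5 and 4.93 CPM in ALK. KO was at 8.96, 7.41 and 9.50 CPM and ALKKO at 4.24, 6.04 and 5.37. Tumor 3 lay inside the Ctrl range. The log2 fold change was 2.23 (SE 0.64, edgeR adjusted p = 0.0261), called in 13 of 19 alternative settings. Without tumor 1 it was 1.46 with an adjusted p of 0.086, and without Ctrl library 1 or 2 the adjusted p was 0.092 or 0.096. The 3 tumors stood in the same order for Heyl as for the summed fibroblast and pericyte markers (mostly Col1a1 and Col3a1). Notch1, Rbpj, Hes1, Dtx1 and Ptcra showed this order too, so it is not particular to Heyl. The part of fibroblasts and pericytes in the Heyl values was not tested.

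Hey1 went the other way in the same 2 tumors. The gene (ENSMUSG00000040289.8, chr3:8663359-8667256, minus strand) was at 1.88 and 2.79 CPM in tumors 1 and 2 and at 16.7 CPM in tumor 3, against 13.5, 17.5 and 22.9 CPM in Ctrl. KO was at 34.1, 4.65 and 22.6 CPM and ALKKO at 10.53, 13.4 and 21.8. The log2 difference was -1.34 (SE 0.84, edgeR adjusted p = 0.249), and without tumor 3 it was -2.96 (adjusted p = 0.0173). The libraries with the lowest Hey1, tumors 1 and 2 and KO library 2, were also those with the lowest sums of thymic epithelium markers (33.9, 103 and 128 CPM). Tumor 3 also had a low sum, 200 CPM against 1077 to 1145 CPM in Ctrl, with Hey1 inside the Ctrl range. The part of epithelial cells in the Hey1 values was not tested.

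Dtx1 and Nrarp encode regulators that feed back on the pathway: Dtx1 is an E3 ubiquitin ligase of the Deltex family, and Nrarp an ankyrin repeat protein that binds the Notch complex and limits it. Dtx1 (ENSMUSG00000029603.15, chr5:120680202-120711927, minus strand) was at 21.0, 32.1 and 24.7 CPM in Ctrl and at 624, 133 and 75.3 CPM in ALK. It was at 19.6, 22.2 and 22.5 CPM in ALKKO. The KO libraries were uneven, at 43.1, 128 and 20.8 CPM, with the highest value in KO library 2. All tumors lay above all Ctrl and ALKKO libraries, and tumor 3 lay below KO library 2. The log2 fold change against Ctrl was 3.42 (SE 0.83, edgeR adjusted p = 0.0124), called in 18 of 19 alternative settings, the exception being the fit without Ctrl library 1 (3.27, adjusted p = 0.056). Without tumor 1 it was 2.01 (adjusted p = 0.0311).

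Nrarp had the highest fitted fold change of the 10 genes with all tumors, and was the only one led by tumor 2. Without tumor 2 its log2 fold change was 2.23, below those of Dtx1 (3.73) and Notch1 (3.50). It (ENSMUSG00000078202.3, chr2:25180758-25183339, plus strand) was at 9.35, 6.97 and 11.5 CPM in Ctrl and at 51.8, 306 and 36.7 CPM in ALK. KO was at 9.80, 7.32 and 6.94 CPM and ALKKO at 8.35, 7.48 and 7.54. Each tumor was at least 3.95 times the Ctrl mean, and tumor 2 was at 32.97 times. The log2 fold change was 3.82 (SE 0.71, edgeR adjusted p = 0.0037), called in all 19 alternative settings, with values up to 4.25. An antisense gene, Gm38287, overlaps 79.4% of the Nrarp exon bases. It held at most 6 reads in any library, or 0.403 CPM. As the strand setting of the counting was not given, it is not known whether reads in the overlap were left out for both genes. The level of Nrarp per kb was taken over its full exon length and may be too low for this reason.

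Ptcra encodes the invariant chain that pairs with the T cell receptor beta chain in the pre-T cell receptor. It (ENSMUSG00000036858.8, chr17:46755663-46763712, minus strand) was at 46.3, 47.4 and 49.0 CPM in Ctrl and at 424, 142 and 32.5 CPM in ALK. KO was at 42.7, 11.4 and 38.1 CPM, with the lowest value in KO library 2, and ALKKO at 26.8, 45.5 and 46.8. Tumors 1 and 2 lay above all thymus libraries and tumor 3 below all Ctrl libraries. The log2 difference against Ctrl was 2.07 (SE 0.75) and did not pass (edgeR adjusted p = 0.0595). It passed in 4 of 19 alternative settings, among them the fit without tumor 3 (2.56, adjusted p = 0.00815) and DESeq2's Wald test (2.03, adjusted p = 0.015).

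The 3 tumors were then set side by side. Tumor 1 had the highest level of the 3 for 8 of the 10 genes, tumor 2 for Nrarp and tumor 3 for Hey1. Tumor 3 had the lowest level for 7 genes, tumor 2 for Notch2 and Notch3, and tumor 1 for Hey1. On the log2 scale relative to the Ctrl mean, tumor 1 was at 4.18 for Notch1, 4.59 for Dtx1, 2.95 for Notch3 and 3.16 for Ptcra. Tumor 2 was at 3.15, 2.36, 0.03 and 1.58 for the same genes, and tumor 3 at 2.27, 1.54, 0.84 and -0.55. Notch1, Rbpj, Hes1, Dtx1 and Nrarp lay above all Ctrl libraries in each tumor, and Notch2, Notch3, Heyl and Ptcra in 2 of the 3. Hey1 lay above all Ctrl libraries in 0 of the 3. The ratio of the highest to the lowest tumor was 13.05 for Ptcra, 10.01 for Heyl, 8.85 for Hey1, 8.35 for Nrarp, 8.28 for Dtx1, 7.56 for Notch3 and 3.77 for Notch1. With 1 library per tumor, differences between tumors have no replicate check.

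**Figure D3:**
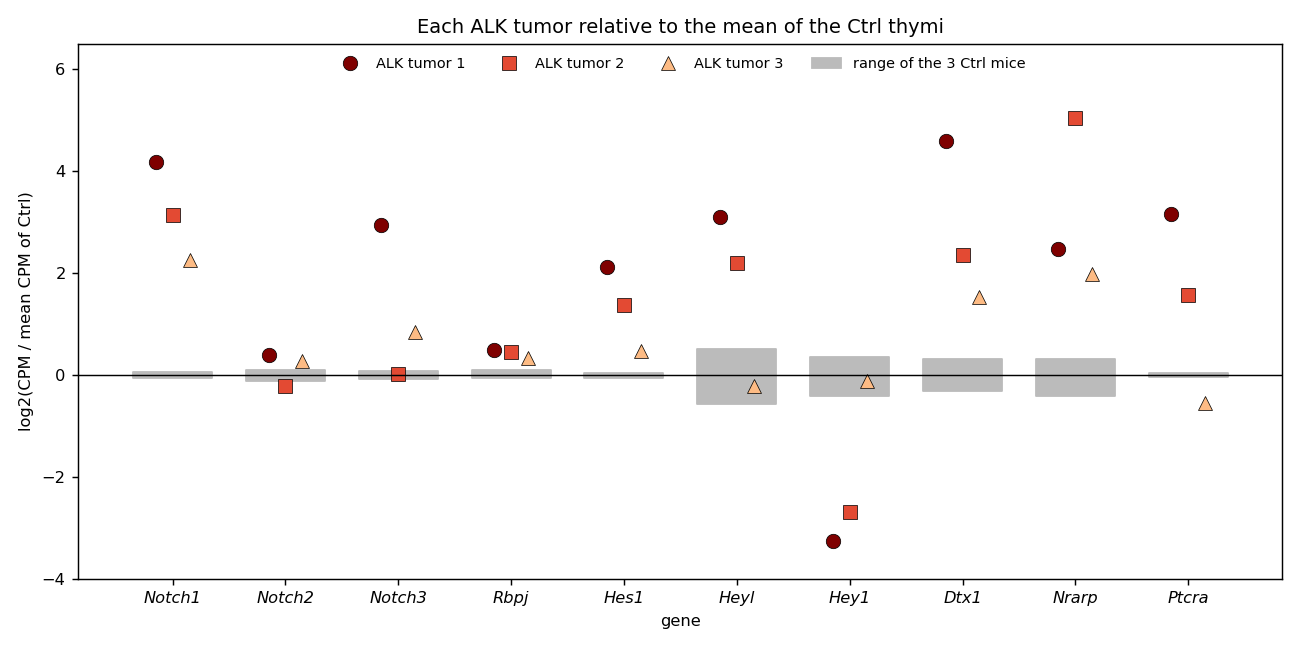
Each ALK tumor relative to the mean CPM of the 3 Ctrl libraries (y axis, log2 ratio) for the 10 genes (x axis). Grey boxes span the 3 Ctrl libraries. Tumor 1 is highest for 8 genes, tumor 2 is at 5.04 for Nrarp, and tumor 3 lies inside the Ctrl box for Heyl and Hey1 and below it for Ptcra.

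The tumors also differed in markers of T-cell development. Of 7 markers of early double-negative progenitors, Cd44 was called higher in ALK against Ctrl and 0 were called lower. Cd44, an adhesion receptor of early progenitors and activated T cells, was at 53.6, 1601 and 534 CPM in tumors 1 to 3 and at 45.9 to 52.0 CPM in Ctrl. Il7r, the interleukin 7 receptor and itself a reported Notch target, was at 1.28, 117 and 174 CPM in the tumors and at 59.3 to 91.3 CPM in Ctrl. Tumor 1, with the highest Notch1, Dtx1 and Ptcra, thus had the lowest Il7r of all 12 libraries. Il2ra, the marker of the stage at which Ptcra is normally induced, was at 54.2, 85.6 and 16.7 CPM in the tumors and at 55.6 to 63.9 CPM in Ctrl. Kit, a receptor of early progenitors, was at 6.45, 51.4 and 68.4 CPM in the tumors and at 10.1 to 16.4 CPM in Ctrl. The transcription factors Hhex, Lyl1 and Mef2c were low in tumors and Ctrl, at most 9.17 CPM, and Hhex was lower in every tumor (0.470, 1.22 and 2.82 CPM) than in every Ctrl library (2.95 to 4.81 CPM).

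Levels of different genes were compared only per kb of exon. In Ctrl, Ptcra was highest with 37.1 ± 1.04 CPM per kb (SD, n = 3), followed by Notch1 with 15.8 ± 0.55, Notch3 with 9.36 ± 0.55 and Notch2 with 5.89 ± 0.41, and these 4 did not overlap. From Notch2 through Hey1, Hes1, Dtx1, Nrarp and Rbpj each gene overlapped its neighbour in the order, and Heyl was lowest with 1.12 ± 0.44. In ALK, Notch1 stood first with 168 ± 108 CPM per kb, then Ptcra with 156 ± 158, Dtx1 with 52.6 ± 57.2 and Nrarp with 50.9 ± 58.6. The spread between tumors was such that every gene overlapped the next in the order. Per kb, Notch1 was thus far above Notch2 (6.64 ± 1.38) in the tumors, the receptor order of Ctrl being kept in the group means.

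Thymocytes with NPM-ALK and the Dnmt1 deletion (ALKKO) were compared with Ctrl next. None of the 10 genes was called in this comparison by edgeR's quasi-likelihood test, 0 had an unadjusted p under 0.05, and DESeq2's Wald test called 0, while 0.181% of all genes were called by edgeR. Notch1 was the 1 gene whose groups did not overlap, against 17.5% of all genes. Its means were 349.7 CPM in ALKKO and 225 in Ctrl, or 1.55-fold, with a log2 difference of 0.63 (95% interval -0.19 to 1.46, edgeR adjusted p = 0.9998). With only ALKKO and Ctrl in the fit, the difference was 0.64 with an adjusted p of 0.0359, still below the fold threshold. In the other 18 alternatives it was 0.53 to 0.69 with adjusted p of 0.847 or more. The ALKKO values of Notch1 (320.0 to 393 CPM) were also above all 3 KO values, and below the lowest tumor (1084 CPM). For Dtx1 the interval of the ALKKO difference was -1.95 to 1.41, for Nrarp -1.68 to 1.18 and for Hes1 -0.81 to 0.88 on the log2 scale. Differences within these intervals remain possible. The intervals rest on a spread shared by all 4 groups, including the uneven tumors. In the fit without tumor 2, the Nrarp difference was -0.26 with an SE of 0.258. Against KO, 0 of the 10 genes were called in ALKKO by either tool and 0 had an unadjusted p under 0.05, with 0.00623% of all genes called by edgeR. Here the groups did not overlap for Notch1 (higher) and Heyl (lower, 4.24 to 6.04 against 7.41 to 9.50 CPM), 2 of the 10 genes against 6.34% of all genes.

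Deletion of Dnmt1 without NPM-ALK (KO against Ctrl) gave 0 calls among the 10 genes with edgeR and 0 with DESeq2, against 0.0187% of all genes called by edgeR. Below an unadjusted p of 0.05 there was 1 gene, Notch2 (log2 difference 0.85, edgeR adjusted p = 0.86). Without KO library 2 this difference was 0.20, that of Dtx1 went from 1.30 to 0.30 and that of Ptcra from -0.63 to -0.23. Ptcra was the 1 gene whose groups did not overlap (KO lower, 11.4 to 42.7 against 46.3 to 49.0 CPM), against 12.4% of all genes. Notch1 was at 191 to 277 CPM in KO and 218 to 233 in Ctrl, a log2 difference of 0.04 with an interval of -0.79 to 0.86.

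The tumors were also compared with the transgenic thymocytes that had lost Dnmt1. In ALK against ALKKO, 6 genes were called higher (Notch1, Hes1, Heyl, Dtx1, Nrarp and Ptcra) and 0 lower, while 7.03% of all genes were called higher and 19.6% in either direction. Nrarp differed by 4.08 (SE 0.72, edgeR adjusted p = 0.00319) on the log2 scale, Dtx1 by 3.69 (SE 0.84, adjusted p = 0.00975) and Notch1 by 2.77 (SE 0.40, adjusted p = 0.00133). These 3 were called in all 19 alternative settings. Hes1 (1.43), Heyl (2.37) and Ptcra (2.33) were called in 15, 13 and 5 of the 19. Without tumor 1 all 3 lost the call, with Ptcra at 1.16 (adjusted p = 0.176). Notch3 differed by 1.58 (adjusted p = 0.0696), and by 0.28 without tumor 1. The groups did not overlap for 5 genes (Notch1, Rbpj, Hes1, Dtx1 and Nrarp), against 43.2% of all genes.

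Against KO thymocytes, 5 genes were called higher in ALK (Notch1, Notch3, Hes1, Nrarp and Ptcra), with 7.94% of all genes called higher and 23.6% in either direction. The groups did not overlap for 4 genes (Notch1, Rbpj, Hes1 and Nrarp), against 38.2% of all genes. Dtx1 was not among them (log2 difference 2.12, edgeR adjusted p = 0.059). Without KO library 2 it was called (3.09, adjusted p = 0.0216) and Notch3, Hes1 and Ptcra were not. The comparisons of ALK with Ctrl, ALKKO and KO share the 3 tumors, so their calls are not independent of each other.

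**Figure D4:**
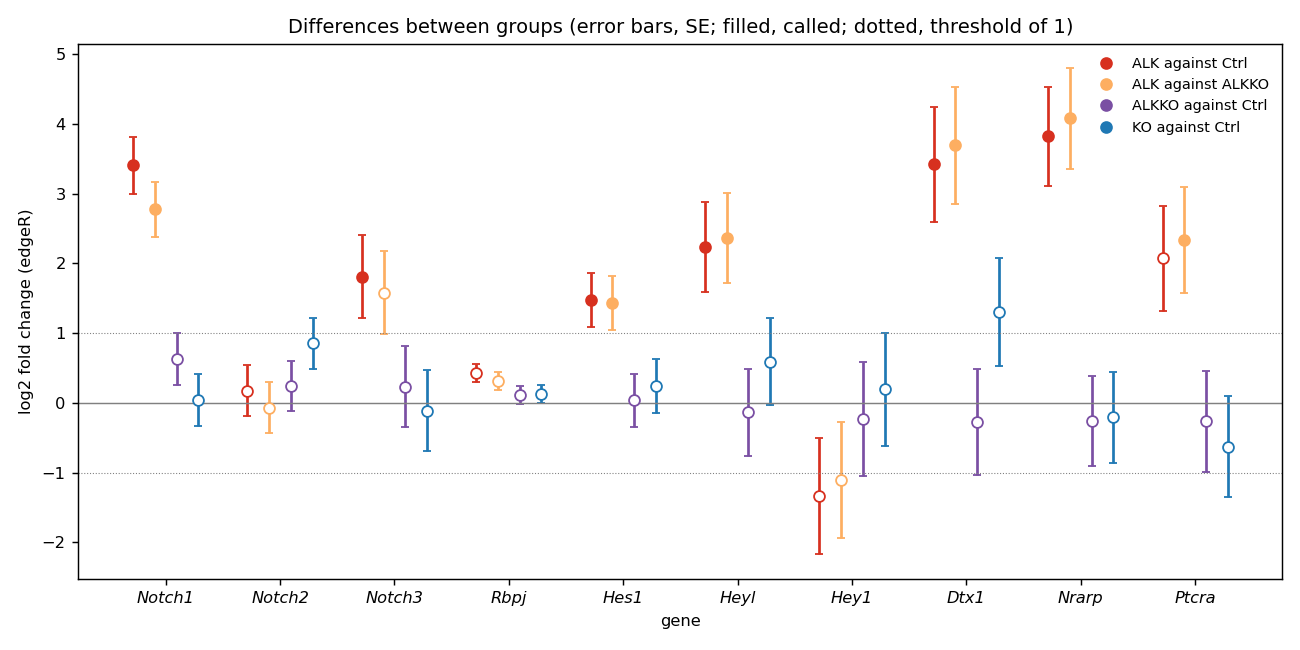
Log2 fold changes (y axis) of the 10 genes (x axis) in 4 comparisons, from the edgeR fit, with SE as error bars. Filled symbols are called and dotted lines mark the fold threshold of 1. The red and orange symbols of Notch1, Dtx1 and Nrarp lie between 2.77 and 4.08, and all symbols of ALKKO and KO against Ctrl are open.

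Whether NPM-ALK went with another difference in mice with and without Dnmt1 was tested by the contrast of ALK minus Ctrl against ALKKO minus KO. It was called for Notch1 (2.81, SE 0.54, edgeR adjusted p = 0.0127), Dtx1 (4.99, SE 1.13, adjusted p = 0.0236) and Nrarp (3.87, SE 0.94, adjusted p = 0.0297), 3 of the 10 genes and each in the positive direction, against 8.93% of all genes in either direction, 3.31% in the positive and 5.62% in the negative. Hes1 (1.68, adjusted p = 0.0743) and Heyl (2.96, adjusted p = 0.0598) did not pass. Notch1 was called in each alternative setting of this contrast. Without KO library 2 the contrast of Dtx1 was 3.96 (adjusted p = 0.0341), and without tumor 1 it was 3.61 for Dtx1 and 2.192 for Notch1. Without tumor 2 it was 2.27 for Nrarp, and Nrarp lost the call without KO library 1 or 3. Only Notch1 was called when any single Ctrl or ALKKO library was left out, with no filter on low counts or with the replicate number as a block.

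The wider pathway was read from 5 lists with 56 genes, of which 55 were tested. In ALK against Ctrl, 6 were called higher and 2 lower, against 8.41% of all genes called higher, 12% lower and 20.4% in either direction, so that the 55 genes were not called more often than genes at large. The median log2 difference was -0.10 over the 55 genes and 0.05 over all genes. Among 11 ligands and glycosyltransferases (10 tested), 0 were called higher and 1 lower, and 2 of 10 differences were above 0. The gene called lower was Dll4, the ligand by which thymic epithelium triggers Notch1. Dll4 was at 12.05, 10.99 and 11.3 CPM in Ctrl and at 4.50, 2.27 and 3.05 CPM in ALK, below all thymus libraries (log2 fold change -1.80, SE 0.33, edgeR adjusted p = 0.00345). It was at 10.9, 15.7 and 14.4 CPM in ALKKO and at 9.22, 14.1 and 16.2 CPM in KO. Of the 7 thymic epithelium markers, 5 were called lower in ALK (Aire, Foxn1, Ccl25, Krt8 and Psmb11) and Krt5 and Epcam were not, Epcam being at 1.95, 41.1 and 45.3 CPM in the tumors and 43.6 to 54.0 in Ctrl. In KO library 2 these markers summed to 128 CPM, and Dll4 was at 14.1 CPM, above all Ctrl libraries. The part of epithelial cells in the Dll4 values was not tested. Of 10 proteases that process the receptor, 0 were called, with differences from -0.79 to 0.72.

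Of 8 nuclear coactivators, 2 were called higher and 0 lower, against the 8.41% and 12% of all genes. The median log2 difference of the 8 was -0.16, and 3 were above 0. Maml3, a Mastermind protein, was at 11.4, 10.8 and 14.0 CPM in Ctrl and at 38.4, 27.2 and 37.2 CPM in ALK (log2 fold change 1.51, edgeR adjusted p = 0.00422). Kat2a, a histone acetyltransferase, was at 76.3, 73.6 and 65.7 CPM in Ctrl and at 243, 186 and 137 CPM in ALK (1.39, adjusted p = 0.00177). Both were higher in every tumor than in every thymus library. Of 13 inhibitors and corepressors, 1 was called higher and 0 lower, no more than the share of all genes called, with a median of -0.11. This was Numbl, a relative of the Notch inhibitor Numb, at 4.18 to 4.97 CPM in Ctrl and 17.4, 7.60 and 8.68 CPM in ALK (1.29, adjusted p = 0.0279).

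Of 14 further receptors and reported targets, 3 were called higher and 1 lower, with 20.4% of all genes called in either direction. Their median log2 difference was 0.43. Myc, a growth-promoting factor and Notch1 target in leukemia, was at 69.8, 75.8 and 77.4 CPM in Ctrl and at 244, 276 and 217 CPM in ALK (log2 fold change 1.72, SE 0.21, edgeR adjusted p = 0.00055). Igf1r, the receptor of insulin-like growth factor 1, was at 52.0 to 57.8 CPM in Ctrl and 161, 306 and 164 CPM in ALK (1.93, adjusted p = 0.00267). Lef1, a partner of beta-catenin, was at 1486 and 1469 CPM in tumors 1 and 2 and at 342 CPM in tumor 3, next to the 344.2 to 383 CPM of Ctrl (1.58, adjusted p = 0.0213).
Dtx2, a Deltex relative of Dtx1, fell, from 65.9, 63.9 and 60.0 CPM in Ctrl to 26.5, 26.6 and 36.8 CPM in ALK (-1.08, adjusted p = 0.00204). In ALKKO and KO against Ctrl, 0 of the 55 genes were called in either direction. Myc was at 55.6, 59.1 and 94.2 CPM in ALKKO and Maml3 at 14.7, 11.4 and 15.8 CPM.

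**Figure D5:**
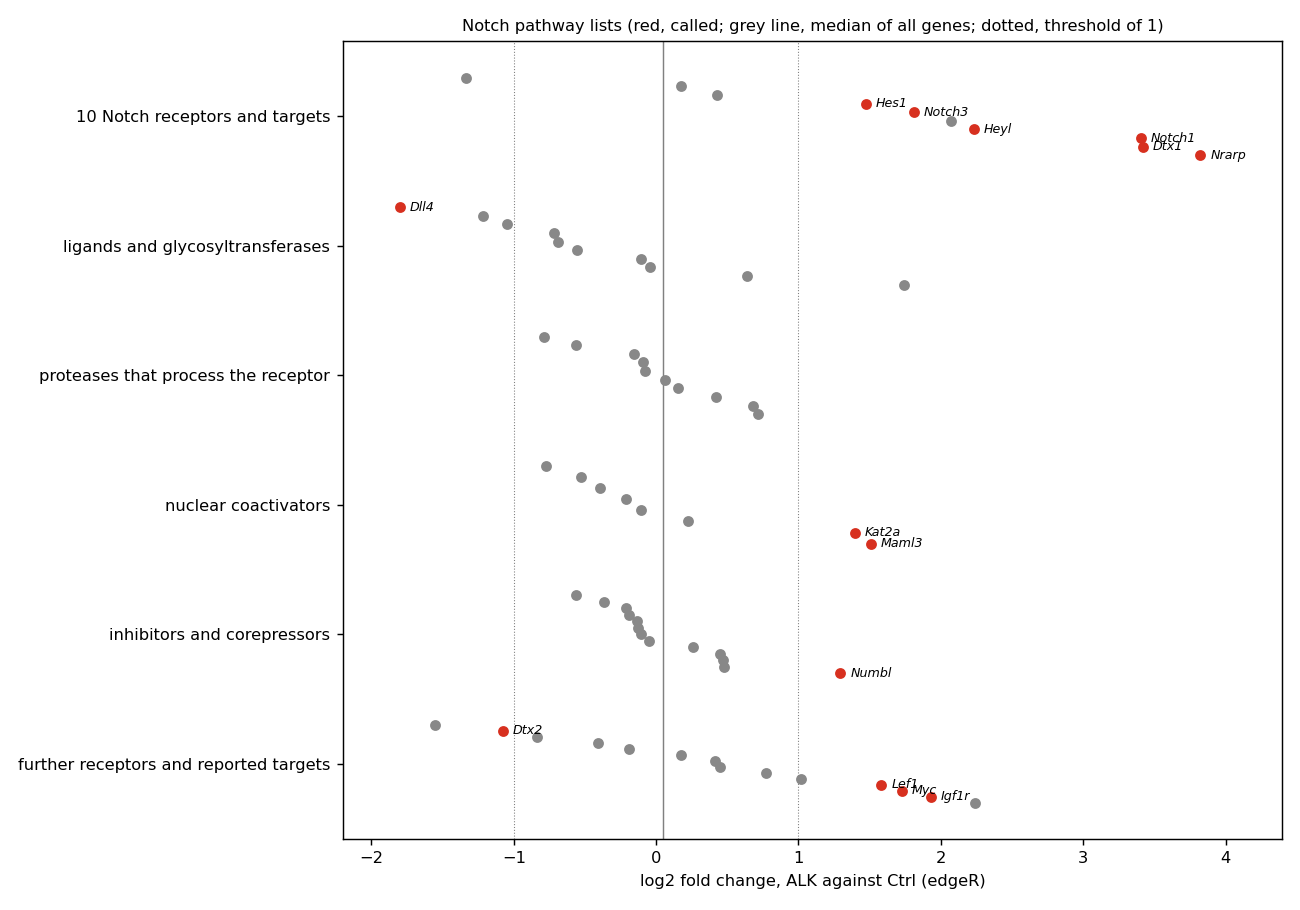
Log2 fold change of ALK against Ctrl (x axis) for each tested gene of the 10 described here and of the 5 pathway lists (rows; points are spread vertically by rank). Red points are called and carry the symbol. Within the top row 6 points are red, and in the lists 8 of 55, among them Dll4 at -1.80 and Igf1r at 1.93.

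Finally, the genes whose pattern over the 12 libraries was closest to 6 of the genes were listed, by the root mean square difference of centred log2(CPM + 1) among 14600 genes. Nearest to Notch1 were Ak5, an adenylate kinase, (0.32, against a median of 1.42 over all genes) and Ptpn14, a tyrosine phosphatase (0.34). Ptpn14 was at 667, 481 and 273 CPM in the tumors and at 53.4 to 101 CPM in the 9 thymus libraries. Nearest to Notch3 were Akap12 (0.27) and Ggt7 (0.30), with Akap12 at 691, 141 and 122 CPM in the tumors. Hes1 was nearest to Med27 (0.23) and Nf1 (0.23), which encodes the Ras regulator neurofibromin and was at 139, 93.3 and 71.9 CPM in the tumors and 36.5 to 51.9 CPM in the thymus libraries. Dtx1 was nearest to Slc16a3 (0.53) and Itga9 (0.58). Nrarp, led by tumor 2, was nearest to Tnr (0.38) and Capn5 (0.42), and Capn5 was at 102, 606 and 113 CPM in the tumors. Ptcra was nearest to Nt5dc2 (0.48) and Mia2 (0.49). These likenesses are descriptions over the same 12 libraries and were not tested.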

How the data were processed

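The study's methods give stranded libraries of poly(A) RNA, sequenced here from 12 mice; the strand setting of the counting was not given in the sources used here. After trimming and alignment to mm10, the authors deposited the raw count of reads per gene. The submitters' processing notes name FastQC, Trim Galore, STAR, HTSeq, DESeq2 and Picard 2.19.2. Rows that name no gene held 43.8% to 55.3% of the reads in a file and were left out. Of 50600 gene IDs, 50376 were matched to GENCODE M21 (GRCm38). Reads were counted without molecular identifiers, so the floor of 3 counts covers counting error only. Libraries of a group differed beyond sampling noise in each pair (chi-square of 13.5 to 207 for each degree of freedom).

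Differences were tested on the counts in R 4.3.3 by the quasi-likelihood F test of edgeR 4.0.16, fitted robustly to all 12 libraries with a mean for each group (TMM factors 0.913 to 1.06, filterByExpr). The p-values of the 16052 genes were adjusted by the Benjamini-Hochberg method. Calls needed an adjusted p below 0.05 and a log2 fold change beyond 1 in either direction. The common biological coefficient of variation was 0.436. Standard errors were derived from the F statistic. The p-values treat the libraries of a group as separate mice. On simulated counts with known changes, the edgeR test of ALK against Ctrl recovered 63.5% of the changed genes with 3 other calls among 15843 genes. This share holds only for the changes put into those counts. The share recovered for differences of other sizes, or in groups as uneven as the tumors, was not tested. Alternatives were DESeq2 1.42.0, its size factors in edgeR, other filters, no fold threshold, a replicate block, an age term, fits of the 2 groups alone, and fits lacking 1 library each.

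The 10 genes, the pathway lists and the marker lists were chosen with earlier results of these data known. Named beside the 10 genes were the called genes of ALK against Ctrl in each pathway list (at most 4 a list, by absolute log2 fold change), Dnmt1 and Alk, and the 2 nearest genes of 6 of the 10. Marker genes, overlapping genes and Il7r stand outside this rule and were picked with their values in view. Hes1, Heyl and Hey1 promoter sequences and protein sequences were not used here. Python 3.11.15, pandas 2.3.3, scipy 1.17.1 and matplotlib 3.10.9 were used for the remaining steps.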

Additional observations from a re-analysis of the deposited data

Results flagged for a closer look

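The difference that went with NPM-ALK was not the same with and without the Dnmt1 deletion for 3 of the 10 genes, by the interaction contrast in edgeR's quasi-likelihood test over all genes. For Notch1 it was 2.81 larger on the log2 scale without the deletion (ALK against Ctrl 3.41, ALKKO against KO 0.60). For Dtx1 it was 4.99 larger (3.42 and -1.58), and the KO group of this contrast includes KO library 2 with 128 CPM of Dtx1. Without that library the values were 3.96 (3.39 and -0.57). For Nrarp it was 3.87 larger (3.82 and -0.04). The ALK libraries are from tumors and the ALKKO libraries from thymi, so transformation, the intact Dnmt1 gene and the mix of cells cannot be told apart. Groups of 3 were not searched for outlying samples.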

How the results depend on the processing

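Leaving out 1 library at a time moved the number of the 10 genes called between 2 and 8 in ALK against Ctrl, 3 and 8 in ALK against ALKKO, 2 and 8 in ALK against KO and 1 and 5 in the interaction. The upper ends came without ALK tumor 3. The lower ends came without Ctrl library 1 in ALK against Ctrl (3 without Ctrl library 2), without ALK tumor 1 in ALK against KO (3 without KO library 2 or 3), without ALK tumor 1 or ALKKO library 1 or 2 in ALK against ALKKO, and without any 1 Ctrl or ALKKO library in the interaction. With only the groups compared in the fit, 3 genes were called in ALK against Ctrl (Notch1, Dtx1 and Nrarp), 3 in ALK against ALKKO and 1 in ALK against KO. The share of all genes called moved too: it was 12.8% without Ctrl library 1 and 22.6% without tumor 3 in ALK against Ctrl (20.4% with all libraries), and with only 2 groups 17.2% there, 13.7% in ALK against ALKKO and 5.95% in ALK against KO. The cause was not tested. The interaction was called for 5 genes with DESeq2, 5 with labelled age as a covariate and 1 with no low-count filter. Between libraries with the same replicate number, 18 correlations of deviations lay between -0.14 and 0.45, and 5 were above 0.1. Libraries with different numbers were not compared in this way, so whether the numbers pair the samples was not settled. With the replicate block, 4 genes were called in ALK against Ctrl, 4 in ALK against ALKKO, 3 in ALK against KO and 1 in the interaction. With no fold threshold, Rbpj joined the calls of ALK against Ctrl, making 7.

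Among differences that were not called, some turned. With labelled age as a covariate, Hes1 in ALKKO against Ctrl was at -0.077, Notch1 in KO against Ctrl at -0.13 and Nrarp in ALKKO against KO at 0.27. Rbpj in ALKKO against KO was at 0.00103 with no low-count filter. With 1 library left out, Hes1 in ALKKO against Ctrl ranged from -0.21 to 0.25 and Heyl from -0.36 to 0.20. In KO against Ctrl, Notch1 ranged from -0.13 to 0.16, Hey1 from -0.40 to 0.66 and Notch3 from -0.41 to 0.080, and in ALK against ALKKO Notch2 ranged from -0.18 to 0.079. In ALKKO against KO, Hey1 ranged from -0.90 to 0.16, Nrarp from -0.13 to 0.13, Notch2 from -0.92 to 0.047, Rbpj from -0.059 to 0.060, Ptcra from -0.025 to 0.68 and Hes1 from -0.43 to 0.025. No called difference of the 10 genes changed sign under any alternative run.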
